A study of Mus musculus with 32 samples.

Results

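The genes of cholesterol and fatty acid synthesis were followed in mouse E14 embryonic stem (ES) cells treated in 2 ways, by knockdown of a pluripotency factor and by chemical induction of differentiation. The set was listed by gene symbol from knowledge of the pathways, without use of measured values, although earlier results of these data were known. A listed gene counted as measured where a probe was annotated to that symbol and no other. Of 32 listed symbols 31 were measured on the RNAi arrays, out of 18193 genes with such a probe set, and 29 on the differentiation arrays, out of 12034 genes tested there. Acat2 was not analysed here, and neither were Hmgcs1 and Scap on the differentiation arrays.

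The RNAi arrays held 1 colour and gave levels in log2 for 5 samples with the empty pSUPER-puro plasmid, 5 with a plasmid against Nanog and 4 with a plasmid against Pou5f1, the gene of the transcription factor Oct4. All 14 came from E14 cells that were transfected, put into 1 µg/ml puromycin after 24 h and kept there for 3 days, so the vector cells were transfected and selected too. The differentiation arrays held 2 colours and gave, for each gene, the log ratio of treated over untreated E14 cells after 2, 4 or 6 days in 0.1 µM retinoic acid (RA), 1% dimethyl sulfoxide (DMSO) or 3 mM hexamethylene bisacetamide (HMBA). Each treatment and day had 2 arrays of opposite dye orientation, 6 arrays per inducer, and replicate 1 held the treated sample in Cy3 and replicate 2 in Cy5. No label states the logarithm base of these ratios, and they are read as log2. The labels do not say which arrays came from separate cultures, so p-values measure only the spread between arrays, which may be technical.

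Cells make cholesterol from acetyl-CoA through mevalonate, isoprenoid pyrophosphates and squalene, and then through a long series of sterol intermediates. Fatty acid synthesis starts from the same acetyl-CoA, and desaturases put double bonds into the products. Both pathways are driven by the SREBP transcription factors (genes Srebf1 and Srebf2), which Scap escorts out of the endoplasmic reticulum when sterols are low and which the Insig proteins hold back when sterols are high.

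The targeted genes were lower where the labels say so. Pou5f1 stood at 11.4 ± 0.09 (SD, n = 5) on the vector arrays and 9.04 ± 0.22 (n = 4) after Pou5f1 RNAi, and Nanog at 11.1 ± 0.08 (n = 5) and 9.29 ± 0.15 (n = 5) after Nanog RNAi, all in log2. Nanog was also at 9.70 ± 0.11 (n = 4) after Pou5f1 RNAi, while Pou5f1 was at 11.3 ± 0.16 (n = 5) after Nanog RNAi. The mean log2 level of 8 ES cell markers was 10.74 to 10.85 on the vector arrays, 9.98 to 10.05 after Nanog RNAi and 8.70 to 8.92 after Pou5f1 RNAi. The mean of 10 trophoblast markers was 5.61 to 5.72, 6.61 to 7.07 and 9.08 to 9.29 in the same order, with 9 of 10 called higher and 1 lower after Pou5f1 RNAi. Endoderm markers were lower after Pou5f1 RNAi, at 4.97 to 5.04 against 5.79 to 5.90 with vector (6 of 10 called lower and 0 higher), and neural markers at 4.79 to 4.94 against 5.82 to 5.95 (3 of 7 lower and 1 higher). The mean of 8 fibroblast and smooth muscle markers was 5.68 to 5.84 after Pou5f1 RNAi and 4.76 to 4.93 in both other groups, but their median difference from vector was 0.084, with 3 called higher, 2 lower and 1 marker up by 5.43. On the differentiation arrays the mean log2 ratio of the ES cell markers was below 0 on every array, from -3.01 to -1.28. Pou5f1 and Nanog were not lower throughout. Pou5f1 read 0.151 and 0.328 on day 2 of DMSO and 0.102 and -0.385 on day 2 of HMBA. Nanog read -0.432 and -0.01 on day 2 and -0.594 and 0.246 on day 6 of RA. Both genes were below 0 on all arrays of the other treatments and days. Trophoblast markers lay at 0.55 to 1.47 with RA, at -0.43 to 0.30 with DMSO and at 0.38 to 1.87 with HMBA. Fibroblast and smooth muscle markers lay at 1.08 to 2.24, 0.19 to 0.72 and 0.62 to 1.48 in the same order, with 5, 3 and 4 of 8 called higher and 0 lower. Endoderm markers lay at 0.052 to 1.42 with RA, with 5 of 8 called higher and 1 lower, and within -0.12 to 0.15 with DMSO and HMBA. Over all genes 17%, 10.7% and 15.5% were called higher with RA, DMSO and HMBA, and 10.5% lower with RA. No calls are counted here for the ES cell markers, or for trophoblast markers after Nanog RNAi or with the inducers. Those means may rest on few markers. The part of other cell types in the values below was not tested, and in RNA from whole cultures fewer cells of a type and less RNA per cell cannot be told apart.

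Promoter windows are shown first. Whether any motif in them bears on the changes given below was not tested. RefSeq windows (build GRCm38.p6, 250 bases before to 50 after a start) were at hand for 24 of the 31 measured genes. Each was searched on both strands for the sterol regulatory element core TCACNCCAC, which SREBPs bind, for CCAAT, the box of the co-factor NF-Y, and for GGGCGG, the GC box of Sp1. Matches were counted for each motif on its own, and neighbouring matches of CCAAT and GGGCGG can share end letters. The sterol element core was in the window of 1 gene, Hmgcs1, as TCACCCCAC starting at position -137, and in 1.24% of all 32851 windows. CCAAT was in a window of 20 of the 24 genes, and GGGCGG likewise of 20, against 37.4% and 35.7% of all windows. Some genes have several windows, and over the 32 windows of these 24 genes CCAAT was in 21 and GGGCGG in 24. The windows of 5 genes follow, 5′ to 3′ on the strand of the gene, with matches to the sterol element core or to CCAAT on either strand in capitals. Hmgcs1 is shown as the gene with the sterol element core (chr13:119690101-119690400, plus strand), Idi1 (chr13:8885356-8885655, plus strand) and Msmo1 (chr8:64733529-64733828, minus strand) as the genes with the largest falls after Nanog RNAi, and Fads2 (chr19:10101454-10101753, minus strand) and Elovl6 (chr3:129532136-129532435, plus strand) as genes without either motif that had large differences of opposite sign between the knockdowns.
Hmgcs1: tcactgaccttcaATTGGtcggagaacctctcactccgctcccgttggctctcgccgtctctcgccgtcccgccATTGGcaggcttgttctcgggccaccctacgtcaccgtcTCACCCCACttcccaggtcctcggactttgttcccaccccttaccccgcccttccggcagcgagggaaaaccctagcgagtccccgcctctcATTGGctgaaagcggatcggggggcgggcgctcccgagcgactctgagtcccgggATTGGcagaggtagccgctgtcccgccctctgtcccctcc
Idi1: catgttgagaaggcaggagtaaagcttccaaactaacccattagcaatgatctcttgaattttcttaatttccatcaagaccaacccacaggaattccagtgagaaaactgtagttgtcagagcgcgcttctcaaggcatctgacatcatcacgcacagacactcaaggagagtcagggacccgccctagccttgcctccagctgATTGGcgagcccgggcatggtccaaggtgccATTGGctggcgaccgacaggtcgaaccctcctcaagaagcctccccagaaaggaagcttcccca
Msmo1: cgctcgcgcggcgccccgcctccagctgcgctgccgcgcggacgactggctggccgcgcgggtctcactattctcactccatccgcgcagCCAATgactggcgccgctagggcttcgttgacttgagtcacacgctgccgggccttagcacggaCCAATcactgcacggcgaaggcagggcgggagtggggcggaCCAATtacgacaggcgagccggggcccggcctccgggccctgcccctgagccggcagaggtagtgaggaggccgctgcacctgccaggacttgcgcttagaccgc
Fads2: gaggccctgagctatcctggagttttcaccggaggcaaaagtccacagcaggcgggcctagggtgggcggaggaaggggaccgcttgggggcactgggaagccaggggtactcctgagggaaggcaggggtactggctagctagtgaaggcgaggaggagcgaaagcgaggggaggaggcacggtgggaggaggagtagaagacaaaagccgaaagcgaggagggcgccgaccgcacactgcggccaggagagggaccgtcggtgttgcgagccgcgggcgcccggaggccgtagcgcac
Elovl6: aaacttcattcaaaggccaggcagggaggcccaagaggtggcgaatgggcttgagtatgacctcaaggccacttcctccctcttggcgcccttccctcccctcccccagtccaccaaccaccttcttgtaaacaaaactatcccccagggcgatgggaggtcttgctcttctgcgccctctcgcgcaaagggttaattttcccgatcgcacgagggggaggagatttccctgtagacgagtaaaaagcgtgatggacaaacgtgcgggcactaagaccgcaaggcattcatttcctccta
The window of Hmgcs1 holds 4 CCAAT boxes besides the sterol element core, that of Msmo1 holds 3 and that of Idi1 holds 2. A match of letters is a description of the window and not a bound site.

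Knockdown of Nanog lowered all 4 desaturases and some of the genes of sterol synthesis, and raised a few genes of other roles. Against the vector, 4 of the 31 genes rose and 15 fell (limma, Benjamini-Hochberg adjusted p under 0.05 over all probe sets), and the median difference of the 31 genes was -0.20 in log2 against -0.02 over all genes. Over all genes 20.8% changed, with 12.1% that rose and 8.77% that fell. By role, 2 of 6 genes of the mevalonate arm fell and 0 rose, 6 of 11 of the squalene and sterol arm fell and 0 rose, and all 4 desaturases fell. Of the 4 genes of fatty acid synthesis 1 fell and 2 rose.

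Idi1 had the largest fall. It encodes the isomerase that turns isopentenyl pyrophosphate into dimethylallyl pyrophosphate in the mevalonate arm. Its log2 levels were 9.11, 9.18, 9.30, 9.18 and 9.24 on the vector arrays and 8.0, 7.92, 7.96, 7.82 and 8.31 after Nanog RNAi. Every Nanog RNAi array was below every vector array, and the difference of -1.20 ± 0.08 (standard error) is 2.3-fold lower (limma adjusted p = 2.4e-09). After Pou5f1 RNAi the levels were 8.41, 8.30, 8.51 and 8.31, again all below the vector arrays, at -0.82 ± 0.09 (limma adjusted p = 2.7e-07).

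Msmo1, the methylsterol monooxygenase that removes the methyl groups at carbon 4 of the sterol ring, came next. The vector arrays read 8.59, 8.68, 8.80, 8.91 and 9.09 and the Nanog RNAi arrays 7.64, 7.89, 7.87, 8.04 and 7.99, without overlap. The fall was -0.93 ± 0.10 (limma adjusted p = 1.3e-06), or 1.90-fold. After Pou5f1 RNAi the levels of 8.50, 8.47, 8.86 and 8.62 overlapped those with vector, and the difference of -0.21 ± 0.11 did not pass the test (limma adjusted p = 0.17).

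Fdps makes farnesyl pyrophosphate, the last step before the pathway commits to squalene. Its levels were 9.73, 9.79, 9.78, 9.95 and 9.99 with vector, 9.12, 9.18, 9.11, 9.32 and 9.19 after Nanog RNAi and 9.43, 9.47, 9.72 and 9.58 after Pou5f1 RNAi. No array of either knockdown reached the lowest vector array. Fdps fell by 0.67 ± 0.08 after Nanog RNAi (limma adjusted p = 2.9e-06) and by 0.30 ± 0.08 after Pou5f1 RNAi (limma adjusted p = 0.0070).

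Other genes of the sterol arm fell less after Nanog RNAi. Nsdhl, a sterol dehydrogenase that works with Msmo1, was at -0.59 ± 0.09, and Dhcr7, which makes cholesterol from its last precursor, at -0.51 ± 0.10. Fdft1 (squalene synthase) was at -0.42 ± 0.08, Cyp51 (lanosterol demethylase) at -0.39 ± 0.08 and Tm7sf2 (a sterol reductase) at -0.35 ± 0.09. Sqle, the squalene epoxidase, at -0.19 ± 0.08, Lss, Ebp, Hsd17b7 and Sc5d did not pass the test. A dim probe set of Lss (mean level 3.95), which does not stand for the gene, fell by 0.61 (limma adjusted p = 4.4e-04). Hmgcs1, which makes the precursor of mevalonate, was at -0.14 ± 0.08 by the probe set that stands for it and did not pass, whereas its 4 other probe sets fell by 0.22 to 0.41 and did.

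Knockdown of Pou5f1 moved the same pathways in a mixed way. Against the vector 12 of the 31 genes rose and 12 fell (limma), where 40.1% of all genes changed, 20.6% upward and 19.5% downward, and the median difference of -0.05 was near that of all genes, -0.04. In the mevalonate arm 3 of 6 genes rose and 2 fell, in the squalene and sterol arm 2 of 11 rose and 5 fell, all 4 genes of fatty acid synthesis fell and all 4 desaturases rose. The rises of the mevalonate arm, Hmgcs1, Mvk and Pmvk, were weakly held. The other probe sets of Hmgcs1 lay at -0.14 to 0.09 and that of Mvk at 0.01, and none passed. The call of Pmvk was lost without any 1 of 7 arrays. The Pou5f1 and Nanog comparisons use the same 5 vector arrays, so they are not independent of each other.

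Scd1 and Fads2, both desaturases, had the largest rises after Pou5f1 RNAi. Scd1, which makes oleate and palmitoleate from saturated fatty acids, read 7.54, 7.68, 7.67, 7.5 and 7.64 with vector, 8.64, 8.53, 8.97 and 8.85 after Pou5f1 RNAi and 6.71, 6.98, 7.07, 6.55 and 6.85 after Nanog RNAi. The 3 groups did not overlap. Scd1 rose by 1.14 ± 0.11 after Pou5f1 RNAi, 2.20-fold (limma adjusted p = 2.3e-08), and fell by 0.77 ± 0.10 after Nanog RNAi, 1.71-fold (limma adjusted p = 1.0e-05).

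Fads2, the desaturase that starts the synthesis of long polyunsaturated fatty acids, read 6.73, 6.77, 6.75, 6.78 and 6.81 with vector, 7.80, 7.85, 7.56 and 7.95 after Pou5f1 RNAi and 6.44, 6.36, 6.31, 6.63 and 6.35 after Nanog RNAi. Again no array of one group lay within the range of another. It rose 2.03-fold after Pou5f1 RNAi (1.02 ± 0.09 in log2, limma adjusted p = 4.9e-09) and fell 1.28-fold after Nanog RNAi (-0.35 ± 0.08, limma adjusted p = 0.0038). The remaining desaturases had differences of the same signs. Scd2, a second stearoyl-CoA desaturase, was at 0.70 ± 0.09 after Pou5f1 RNAi and -0.48 ± 0.09 after Nanog RNAi, and Fads1, which acts after Fads2, at 0.40 ± 0.11 and -0.59 ± 0.10.

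Elovl6 and Fasn, which build the saturated chain, had signs opposite to those of the desaturases. Elovl6, which lengthens palmitate to stearate, read 8.89, 9.0, 9.12, 9.0 and 9.11 with vector, 8.36, 8.27, 8.46 and 8.34 after Pou5f1 RNAi and 9.45, 9.44, 9.39, 9.52 and 9.5 after Nanog RNAi. The groups did not overlap, and here the Nanog RNAi arrays were the high ones. Elovl6 fell by 0.67 ± 0.07 after Pou5f1 RNAi (1.59-fold, limma adjusted p = 2.1e-07) and rose by 0.44 ± 0.07 after Nanog RNAi (1.35-fold, limma adjusted p = 1.0e-04). After Nanog RNAi another bright probe set rose by 0.59 and a dimmer one (mean level 5.26) was at -0.02 without passing.

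Fasn, the fatty acid synthase, read 8.99, 9.06, 9.09, 9.13 and 9.24 with vector, 8.66, 8.57, 8.73 and 8.63 after Pou5f1 RNAi and 9.24, 9.24, 9.27, 9.45 and 9.44 after Nanog RNAi. The Pou5f1 RNAi arrays were below all vector arrays, and the lowest Nanog RNAi array (9.239) was barely above the highest vector array (9.235). The fall after Pou5f1 RNAi was -0.45 ± 0.08 (limma adjusted p = 6.9e-05). The rise after Nanog RNAi was 0.23 ± 0.07 (limma adjusted p = 0.037) and did not pass once any 1 of 6 arrays was left out, namely vector replicates 1 to 4 and Nanog RNAi replicates 4 and 5 (limma adjusted p = 0.055 to 0.10). Acly, which supplies cytosolic acetyl-CoA from citrate, was at -0.40 ± 0.08 after Pou5f1 RNAi and -0.38 ± 0.08 after Nanog RNAi, and Acaca, which makes malonyl-CoA, at -0.32 ± 0.08 and -0.20 ± 0.07, the last without passing the test.

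**Figure D1:**
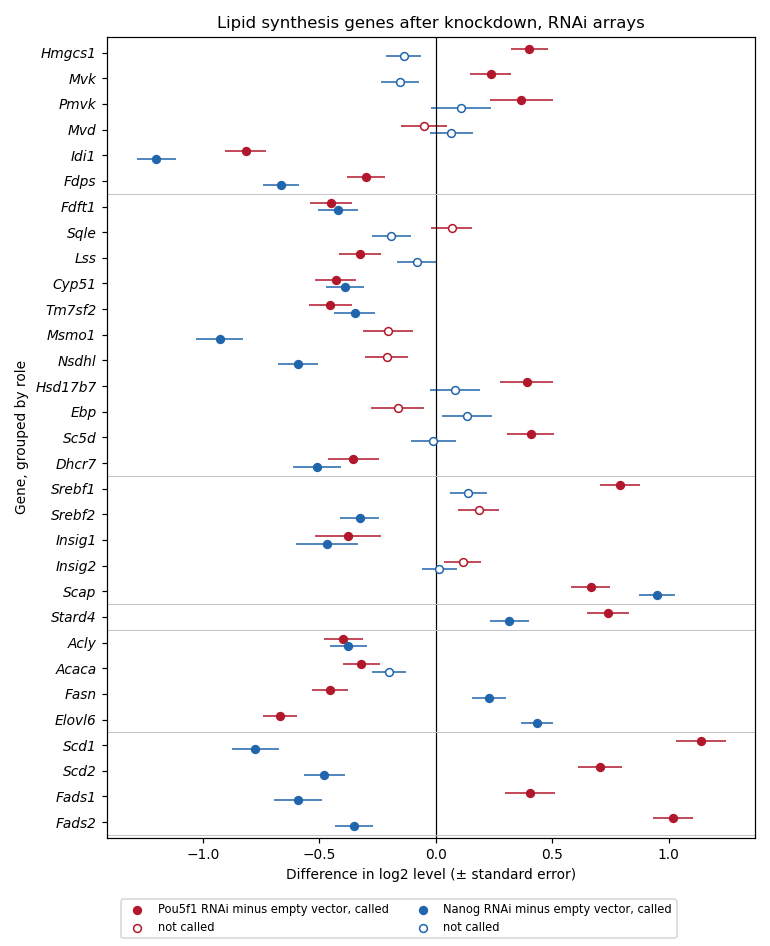
Difference in log2 level from the empty vector for each of the 31 genes, grouped by role, after Pou5f1 RNAi (red, n = 4 against 5 arrays) and Nanog RNAi (blue, n = 5 against 5), with bars for the standard error and filled points for genes that passed the test. All 4 desaturases lie right of 0 in red and left of 0 in blue, Elovl6 and Fasn lie the other way round, and Idi1 has the lowest point of each colour.

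Compared directly with each other, with no vector array in the contrast, the knockdowns differed in 20 of the 31 genes, 16 higher and 4 lower after Pou5f1 RNAi, where 37.4% of all genes differed, 18.8% higher and 18.6% lower. The median difference was 0.26 against -0.01 over all genes. Scd1 was 3.77-fold higher after Pou5f1 than after Nanog RNAi (1.91 ± 0.11 in log2, limma adjusted p = 9.5e-12), Fads2 2.58-fold (1.37 ± 0.09), Scd2 2.27-fold (1.18 ± 0.09) and Fads1 1.99-fold (0.99 ± 0.11). Elovl6 was 2.15-fold lower (-1.10 ± 0.07, limma adjusted p = 1.3e-10) and Fasn 1.60-fold lower (-0.68 ± 0.08). In the mevalonate arm Hmgcs1, Mvk, Idi1 and Fdps were higher by 0.37 to 0.54, and in the sterol arm Msmo1 was higher by 0.72 ± 0.11. Lss, lanosterol synthase, gave opposite calls by 2 of its probe sets here, -0.25 by the brighter one and 0.60 by a dim one. It was the only gene to do so among 81 pairs of a gene with several probe sets and a comparison.

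The regulators did not move as one group. Srebf1, whose product mainly drives fatty acid synthesis, read 7.62, 7.97, 7.87, 7.57 and 7.80 with vector, 8.49, 8.51, 8.62 and 8.61 after Pou5f1 RNAi and 7.92, 7.97, 7.84, 7.82 and 7.97 after Nanog RNAi. Only the Pou5f1 RNAi arrays stood apart from the vector arrays, with a rise of 0.79 ± 0.08, 1.73-fold (limma adjusted p = 1.8e-07), and the Nanog RNAi arrays differed by 0.14 ± 0.08 (limma adjusted p = 0.30).

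Srebf2, whose product mainly drives cholesterol synthesis, read 7.77, 8.05, 7.99, 7.94 and 8.04 with vector and 7.55, 7.55, 7.53, 7.64 and 7.91 after Nanog RNAi. Of the Nanog RNAi arrays, replicate 5 alone lay within the vector range, and Srebf2 fell by 0.33 ± 0.08 (limma adjusted p = 0.0096). After Pou5f1 RNAi it read 8.17, 8.06, 8.09 and 8.26, all above the highest vector array, and the difference of 0.18 ± 0.09 did not pass the test (limma adjusted p = 0.13), while a dimmer probe set of the gene rose by 0.85 ± 0.10.

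Scap, the escort of the SREBPs, had the largest rise after Nanog RNAi and rose after Pou5f1 RNAi too. It read 7.53, 7.72, 7.56, 7.39 and 7.65 with vector, 8.48, 8.49, 8.50, 8.43 and 8.72 after Nanog RNAi and 8.21, 8.17, 8.33 and 8.24 after Pou5f1 RNAi. The 3 groups were apart from each other. The rise was 0.95 ± 0.08 after Nanog RNAi (1.93-fold, limma adjusted p = 1.9e-08) and 0.67 ± 0.08 after Pou5f1 RNAi (limma adjusted p = 1.3e-06). Another probe set of Scap, dim at a mean level of 4.19, was at -0.08 and -0.11 in the same order and passed in neither.

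Insig1, itself a sterol-regulated target, read 6.50, 7.07, 7.09, 6.79 and 7.08 with vector, 6.44, 6.21, 6.64, 6.18 and 6.73 after Nanog RNAi and 6.53, 6.29, 6.86 and 6.43 after Pou5f1 RNAi. Vector replicates 1 and 4 lay within the range of the Pou5f1 RNAi arrays, and replicate 1 also within that of the Nanog RNAi arrays. The differences were -0.47 ± 0.13 (limma adjusted p = 0.019) and -0.38 ± 0.14 (limma adjusted p = 0.046). The Nanog call was lost without any 1 of vector replicates 2 and 3 and Nanog RNAi replicates 2 and 4 (limma adjusted p = 0.050 to 0.059). The Pou5f1 call was lost without any 1 of 7 arrays, which were vector replicates 2, 3 and 5, Nanog RNAi replicate 1 and Pou5f1 RNAi replicates 1, 2 and 4 (limma adjusted p = 0.056 to 0.17).

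Insig2 read 6.90, 6.93, 7.01, 7.11 and 7.09 with vector, 6.83, 7.09, 7.01, 7.10 and 7.08 after Nanog RNAi and 7.03, 7.13, 7.11 and 7.24 after Pou5f1 RNAi. The groups overlapped, and neither difference (0.02 ± 0.08 and 0.12 ± 0.08) passed the test. Stard4, which carries sterols between membranes, read 7.16, 7.41, 7.34, 7.16 and 7.36 with vector, 7.75, 7.63, 7.59, 7.41 and 7.64 after Nanog RNAi and 7.85, 7.99, 8.18 and 8.10 after Pou5f1 RNAi. The Pou5f1 RNAi arrays were the highest, and the rises were 0.74 ± 0.09 (limma adjusted p = 9.1e-07) and 0.32 ± 0.08 (limma adjusted p = 0.012). Tm7sf2, among the 4 largest falls after Pou5f1 RNAi, read 6.39, 6.68, 6.56, 6.33 and 6.60 with vector, 5.90, 6.15, 6.16 and 6.02 after Pou5f1 RNAi and 6.33, 6.17, 6.15, 5.97 and 6.20 after Nanog RNAi. Its Pou5f1 RNAi arrays were below all vector arrays, at -0.45 ± 0.09 (limma adjusted p = 4.7e-04).

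**Figure D2:**
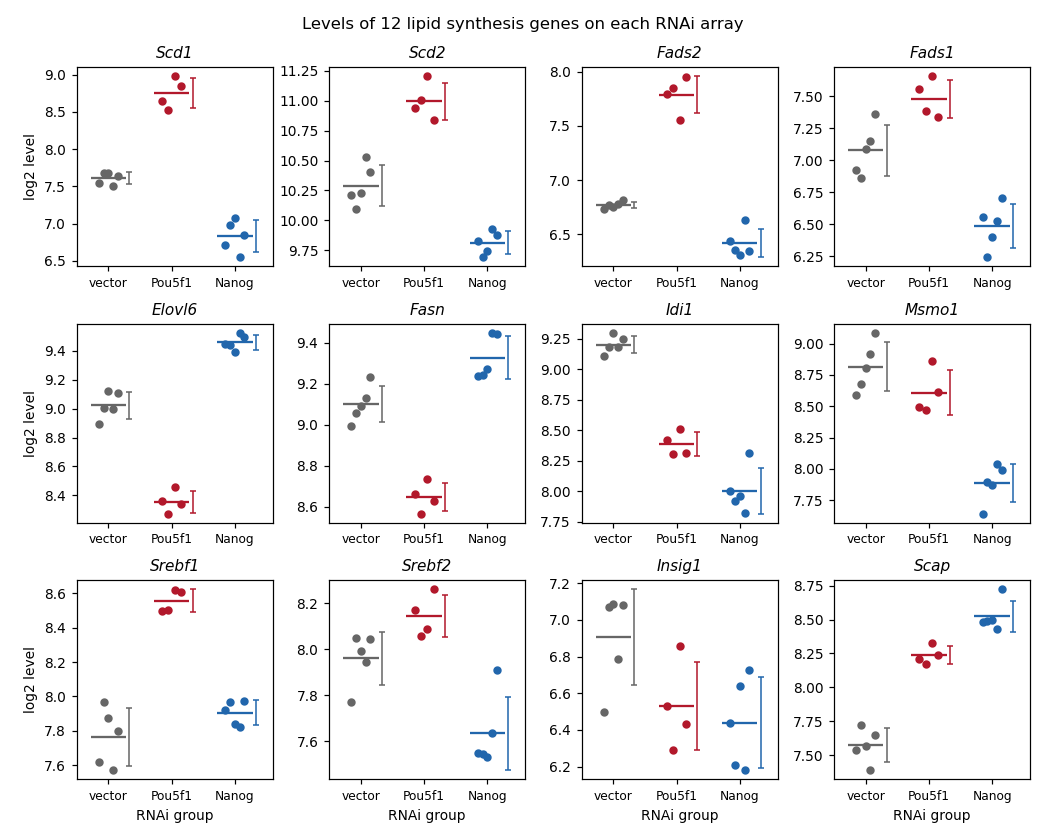
Log2 level of 12 genes on each RNAi array, with each point an array, each line a group mean and each bar ± 1 SD (vector n = 5, Pou5f1 RNAi n = 4, Nanog RNAi n = 5). Each vertical axis has its own range and does not start at 0. The 3 groups separate for Scd1, Scd2, Fads2, Elovl6 and Scap, vector and Nanog RNAi nearly meet for Fasn, and the groups for Insig1 overlap.

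Some calls on the RNAi arrays rested on 1 probe set or 1 array. Taking the mean of all probe sets weakened 8 and reversed 2 of the 63 calls of the RNAi comparisons, and not all are named here. After Nanog RNAi, Acly was at -0.38 and -0.42 by probe sets that passed and at -0.15 by another bright one (limma adjusted p = 0.29). Stard4 was likewise at 0.32 and 0.23 by probe sets that passed and at -0.08 by another (limma adjusted p = 0.58). With the mean of all probe sets of a gene, Hmgcs1, Mvk, Lss and Fads1 no longer passed in the Pou5f1 comparison and Sc5d changed sign (from 0.41 to -0.021), and the calls of Mvk and Pmvk were lost there without any 1 of 5 and 7 arrays (limma adjusted p up to 0.13 and 0.15). These were vector replicates 1 and 2 and Pou5f1 RNAi replicates 1, 3 and 4 for both, and vector replicate 3 and Nanog RNAi replicate 2 also for Pmvk. The call of Dhcr7 was lost without vector replicate 2 or Pou5f1 RNAi replicate 1 (limma adjusted p = 0.052 to 0.058).

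With each inducer the genes called against untreated ES cells were nearly all higher. Averaged over days 2, 4 and 6, RA raised 19 of the 29 genes and lowered 0, DMSO raised 12 and lowered 0, and HMBA raised 18 and lowered 1, Elovl6. Over all genes, 27.5% changed with RA, 19.3% with DMSO and 28.2% with HMBA. These divide into 17.0%, 10.7% and 15.5% that rose and 10.5%, 8.6% and 12.8% that fell. The median log2 ratio of the 29 genes was 0.56 with RA, 0.40 with DMSO and 0.63 with HMBA, and that of all genes lay between 0.00 and 0.02. The arrays of the 3 inducers were all set against untreated E14 cells, so the inducers are not independent of each other, and their values are given side by side.

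Dye orientation mattered for these counts. Ratios of the same orientation deviated together in every pair of groups (r = 0.51 to 0.92), so the replicate numbers pair the arrays. With dye orientation as a replicate block, RA raised 23 genes, DMSO raised 18 and lowered 1, and HMBA raised 23 and lowered 1, where 29.9%, 25.0% and 27.4% of all genes rose and 22.8%, 20.2% and 25.5% fell. Srebf2, for example, was higher in Cy5 than in Cy3 in 9 of 9 pairs, by 0.82 on average, and Nsdhl was lower in 9 of 9, by -0.98. With each dye-swap pair averaged and days taken as samples, 18, 11 and 17 genes rose, against 18.4%, 11.6% and 17.1% of all genes.

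Scd1, Scd2 and Fads2 had the 3 highest means over days with each inducer, although with DMSO Scd2 was close to Cyp51 and Srebf2. Scd2 lay between 1.25 and 2.31 with RA (median 2.26), between 0.29 and 1.27 with DMSO (median 0.84) and between 1.00 and 2.13 with HMBA (median 1.52). Every array was above 0, and the lowest array with RA, that of day 2 with the sample in Cy5, lay just below the highest with DMSO. The means over days were 2.06 ± 0.13 with RA (4.17-fold, limma adjusted p = 2.2e-07), 0.83 ± 0.13 with DMSO (1.77-fold, limma adjusted p = 5.4e-04) and 1.56 ± 0.13 with HMBA (2.95-fold, limma adjusted p = 2.1e-06).

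Scd1 ranged from 1.42 to 2.16 with RA (median 1.94), from 0.97 to 1.53 with DMSO (median 1.34) and from 1.17 to 2.6 with HMBA (median 1.67). Again all 18 arrays were above 0, and the 2 highest were those of HMBA day 4. The means were 1.82 ± 0.08, 1.32 ± 0.08 and 1.76 ± 0.08 (limma adjusted p = 1.2e-08, 3.3e-07 and 1.6e-08). Fads2 ranged from 1.27 to 2.01 with RA (median 1.85), from 1.27 to 1.62 with DMSO (median 1.52) and from 0.67 to 2.05 with HMBA (median 1.16). Its means were 1.73 ± 0.11, 1.47 ± 0.11 and 1.29 ± 0.11, or 3.33-fold, 2.77-fold and 2.45-fold (limma adjusted p = 2.3e-07, 1.7e-06 and 2.8e-06). Fads1 was lower than these, at 0.48 ± 0.14 with RA, 0.70 ± 0.14 with DMSO and 0.63 ± 0.14 with HMBA, and its call with RA was lost without any 1 of RA day 2 replicate 2, day 4 replicate 2 and both of day 6 (limma adjusted p up to 0.14).

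In the sterol arm 8 of 11 genes rose with RA, 5 with DMSO and 6 with HMBA, and none fell. Sc5d, a sterol desaturase near the end of the pathway, had the highest mean of this arm with RA, while Cyp51 was above it with DMSO and Tm7sf2 level with it with HMBA. It ranged from 0.71 to 1.55 with RA (median 1.42), from 0.49 to 1.00 with DMSO (median 0.85) and from 0.46 to 1.57 with HMBA (median 1.29). All its arrays were above 0, and the means were 1.26 ± 0.11 with RA (limma adjusted p = 4.9e-06), 0.78 ± 0.11 with DMSO and 1.17 ± 0.11 with HMBA (limma adjusted p = 9.3e-06).

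Cyp51 ranged from 0.40 to 1.14 with RA (median 0.73), from 0.26 to 1.34 with DMSO (median 0.83) and from -0.11 to 1.19 with HMBA (median 0.62). The array below 0 was that of HMBA day 6 with the sample in Cy5. The means were 0.77 ± 0.13 with RA, 0.82 ± 0.13 with DMSO (limma adjusted p = 9.3e-04) and 0.65 ± 0.13 with HMBA. Dhcr7 was close to these at 0.83 ± 0.08, 0.71 ± 0.08 and 0.85 ± 0.08, and Msmo1 at 0.51 ± 0.09, 0.52 ± 0.09 and 0.69 ± 0.09. Tm7sf2 rose with HMBA (1.16 ± 0.22, limma adjusted p = 0.0020), while its values of 0.61 ± 0.22 with RA and 0.62 ± 0.25 with DMSO passed only with the dye block, and its dyes differed by 0.84.

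In the mevalonate arm 1, 1 and 2 of 5 genes rose with RA, DMSO and HMBA, and 0 fell. Fdps rose with each inducer (0.64 ± 0.11, 0.48 ± 0.11 and 0.64 ± 0.11 for RA, DMSO and HMBA), and Mvd, which makes isopentenyl pyrophosphate, with HMBA only among the 3 tests (0.71 ± 0.22), although with the dye block it passed with all 3. Without the block the Mvd call was lost without any 1 of the HMBA Cy5 arrays (limma adjusted p = 0.15 to 0.16), and that of Fdps with DMSO without any 1 of DMSO day 2 replicate 1, day 4 replicate 2 and day 6 replicate 1 (limma adjusted p = 0.052 to 0.062). Idi1, the gene with the largest fall after each knockdown, was at 0.01 ± 0.10 with RA, 0.27 ± 0.10 with DMSO and 0.06 ± 0.10 with HMBA. It ranged from -0.48 to 0.49 over the 18 arrays and did not pass with any inducer (limma adjusted p = 0.97, 0.094 and 0.77). Mvk and Pmvk, the kinases of the arm, did not pass either, at -0.05 to 0.24.

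In fatty acid synthesis the inducers gave different values. Fasn was at 0.81 ± 0.12 with RA and 0.80 ± 0.12 with HMBA (limma adjusted p = 3.7e-04 and 3.8e-04), and at 0.01 ± 0.14 with DMSO over 5 arrays (limma adjusted p = 0.98). Acly was at 0.61 ± 0.11 with RA (limma adjusted p = 0.0012), -0.23 ± 0.11 with DMSO and 0.14 ± 0.11 with HMBA. Elovl6 ranged from -0.73 to -0.06 with HMBA (median -0.46), from -0.50 to 0.16 with RA (median -0.05) and from -0.08 to 0.29 with DMSO (median 0.16). It was below 0 on 6 of 6 HMBA arrays and fell by 0.43 ± 0.10 there (limma adjusted p = 0.0080). The 3 probes of Acaca disagreed with RA, at -0.06 for the probe that stands for it and at 0.66 and 0.85, both called, for the others.

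The regulators rose with some inducers. Srebf2 ranged from 0.11 to 1.54 with RA (median 1.00), from -0.10 to 1.58 with DMSO (median 0.91) and from 0.27 to 1.86 with HMBA (median 1.07), with the Cy5 array the higher in each pair. The means were 0.88 ± 0.22 (limma adjusted p = 0.012), 0.80 ± 0.22 (limma adjusted p = 0.027) and 1.04 ± 0.22 (limma adjusted p = 0.0043). Those with RA and DMSO were lost without any 1 of 3 and 4 arrays, which were the Cy5 array of each day and, for DMSO, also the Cy3 array of day 6. With the dye block the SE fell and all 3 passed (limma adjusted p = 1.7e-07, 8.2e-07 and 2.0e-08).

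Srebf1 ranged from 0.32 to 0.77 with RA (median 0.43), from -0.01 to 1.07 with DMSO (median 0.37) and from -0.02 to 1.04 with HMBA (median 0.31). All but 2 arrays, those of day 2 of DMSO and HMBA with the sample in Cy3, were above 0. The means were 0.47 ± 0.15 (limma adjusted p = 0.035), 0.38 ± 0.15 (limma adjusted p = 0.11) and 0.48 ± 0.15 (limma adjusted p = 0.033). Its calls with RA and HMBA were lost without any 1 of 5 and 4 arrays (all RA arrays but day 4 replicate 1, and the HMBA arrays of day 2, day 4 replicate 2 and day 6 replicate 2), and all 3 values passed with the dye block. Insig2 ranged from -0.29 to 0.46 over the 17 arrays that gave a value and was below 0 on all day 2 arrays and above 0 on all later ones. Its means of 0.08 ± 0.07, 0.22 ± 0.09 and 0.18 ± 0.07 did not pass.

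**Figure D3:**
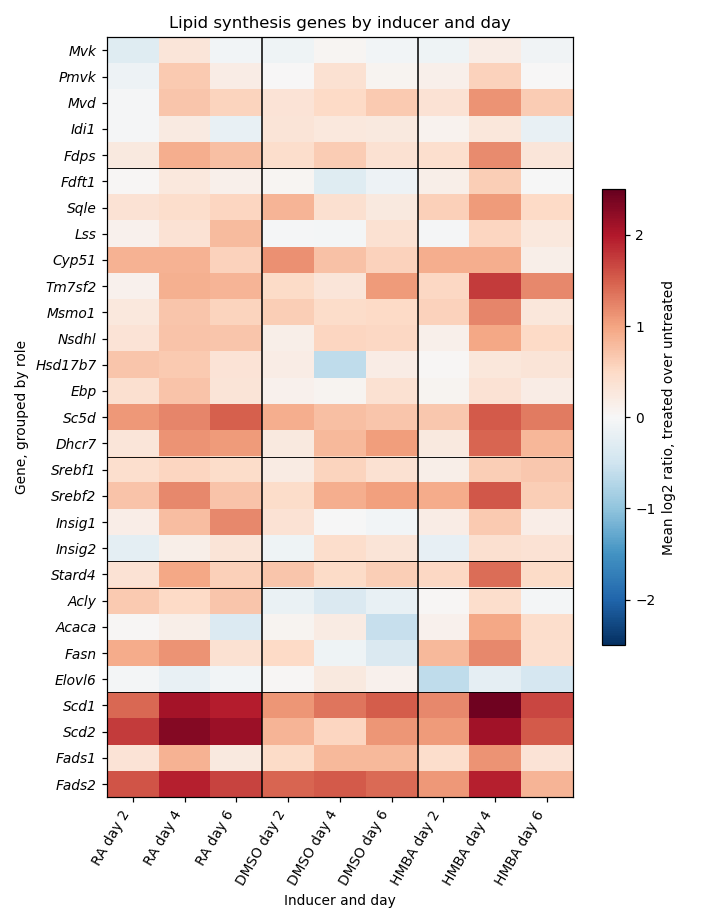
Mean log2 ratio of treated over untreated cells for the 29 genes, grouped by role, with each inducer and day (2 arrays each, or the arrays that gave a value), on a colour scale from -2.5 (blue) to 2.5 (red). Scd2 on day 4 of RA (2.3) and Scd1 on day 4 of HMBA (2.43) are among the darkest cells, and the day 4 column of HMBA is redder than its neighbours in most rows.

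The inducers were then compared with each other. RA exceeded DMSO in 5 of the 29 genes and fell below it in 0 (limma), where 6.48% of all genes differed, 4.29% upward and 2.19% downward. These were Scd2 (1.23 ± 0.18, 2.35-fold, limma adjusted p = 0.0010), Acly (0.85 ± 0.15), Fasn (0.80 ± 0.18), Insig1 (0.61 ± 0.11) and Scd1 (0.50 ± 0.11). All but Insig1 belong to fatty acid synthesis or desaturation. With dye-swap pairs averaged, 2 of the 5 passed, Scd2 and Acly (3.78% of all genes), with dye orientation as a replicate block 7 did (23.6%), and 3 passed without any 1 of RA day 4 replicate 2, RA day 6 replicate 2, DMSO day 2 replicate 1 or DMSO day 6 replicate 1.

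No gene differed between RA and HMBA or between DMSO and HMBA by limma's test (6 and 7 genes had an unadjusted p under 0.05, and 3.14% and 1.75% of all genes were called). With dye orientation as a replicate block the counts were 8 in each comparison, where 16.9% and 11.4% of all genes were called. RA was then above HMBA in 5 genes, among them Acly (0.47, limma adjusted p = 0.0047), Fads2 (0.44, 0.0036) and Scd2 (0.50, 0.0096), and below it in 3. DMSO was below HMBA in 7, among them Fasn (-0.74, limma adjusted p = 3.7e-04), Scd2 (-0.73, 6.9e-04) and Scd1 (-0.44, 0.0053), and above it in Elovl6 (0.55, 0.0022). Without the block, 2 genes differed between RA and HMBA once RA day 2 replicate 2 was left out, and 1 or 2 between DMSO and HMBA once any 1 of the RA arrays of days 2 and 6 was.

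Over time, Insig1 alone differed between day 6 and day 2 of any inducer. With RA its ratios were 0.33 and -0.01 on day 2, 0.76 and 0.77 on day 4 and 1.21 and 1.18 on day 6. The days did not overlap, and day 6 exceeded day 2 by 1.03 ± 0.20 (limma adjusted p = 0.028), where 1.34% of all genes differed and 0.881% were higher. With DMSO it read 0.26 and 0.46, -0.12 and 0.10, and -0.17 and 0.05 on the same days, and with HMBA 0.11 and 0.25, 0.63 and 0.69, and 0.11 and 0.24. The change from day 2 to day 6 with RA exceeded that with DMSO by 1.45 ± 0.28 and that with HMBA by 1.04 ± 0.28, and neither passed (limma adjusted p = 0.090 and 0.69; 0.125% and 0.0249% of all genes called). With the dye block both did (limma adjusted p = 0.0021 and 0.043; 2.33% and 1.48% of all genes). Endoderm markers moved alongside, with 3 of 8 higher on day 6 than on day 2 of RA, 0 lower and a median difference of 1.42, and their part in the Insig1 value was not tested. The call itself was lost without any 1 of 6 arrays (RA day 2 replicate 2, both of RA day 6, HMBA day 2 replicate 2 and both of HMBA day 4), at limma adjusted p = 0.051 to 0.20.

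No other gene passed between days 6 and 2 (limma, with 5, 3 and 5 genes at an unadjusted p under 0.05 for RA, DMSO and HMBA, Insig1 among the first; 1.13% and 1.75% of all genes were called with DMSO and HMBA). With the replicate block for dye the counts were 5, 4 and 4, where 12.2%, 10.8% and 11.3% of all genes were called. Dhcr7 was then higher on day 6 than on day 2 with each inducer, by 0.77 ± 0.18 with RA, 0.80 ± 0.18 with DMSO and 0.58 ± 0.18 with HMBA (limma adjusted p = 0.0084, 0.0072 and 0.046), and Cyp51 was lower with DMSO and HMBA, by -0.57 ± 0.17 and -0.75 ± 0.17 (limma adjusted p = 0.043 and 0.0086).

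With HMBA most of the genes had their highest mean on day 4. The median log2 ratio of the 29 genes was 0.25 on day 2, 0.97 on day 4 and 0.36 on day 6, and 27 of them had their highest mean on day 4, as did 32.9% of all genes. The corresponding medians were 0.34, 0.70 and 0.56 with RA, where 21 genes were highest on day 4 against 27.4% of all genes, and 0.34, 0.43 and 0.39 with DMSO, where 9 were against 31.6%. Scd1 went from 1.22 and 1.17 on day 2 to 2.25 and 2.6 on day 4 and 1.66 and 1.67 on day 6 of HMBA. Msmo1 read 0.62 and 0.54, then 1.35 and 1.11, then 0.34 and 0.21. For both genes the day 4 arrays were above all others of the inducer.

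A test of day 4 against the mean of days 2 and 6 was added after these values were seen. Its count of signs restates the peak on day 4, and no share of all genes above 0 is given beside it. With HMBA the difference was above 0 in 29 of 29 genes, from 0.11 to 0.99 with a median of 0.54 (0.02 over all genes), 0 passed without the dye term (limma, 12 at an unadjusted p under 0.05, 0.133% of all genes called), and 11 passed with dye orientation as a replicate block, all higher, where 2.41% of all genes were called and 1.39% were higher. The 11 include Scd1 (0.99 ± 0.14, limma adjusted p = 7.7e-04), Fads2 (0.98 ± 0.14, limma adjusted p = 0.0010), Dhcr7 (0.92 ± 0.15, limma adjusted p = 0.0028), Tm7sf2 (0.89 ± 0.15), Fdps (0.82 ± 0.18) and Msmo1 (0.80 ± 0.15). With RA and DMSO 0 passed by limma in either fit (2 and 1 at an unadjusted p under 0.05 without the block), where 0.00831% and 0.0249% of all genes were called without the block and 1.06% and 1.2% with it, and the median differences were 0.30 and -0.03. The 8 ES cell markers were all below 0 in the same HMBA test, with a median of -0.67 and 0 called by limma (2 at an unadjusted p under 0.05), and 3 called lower with the block. Fibroblast and smooth muscle markers had a median of 0.47 there, with 2 of 8 called higher, and 4 with the block. The part of either marker list in the day 4 values was not tested. Each day of an inducer is a pair of dye-swapped arrays, so day and culture cannot be told apart.

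**Figure D4:**
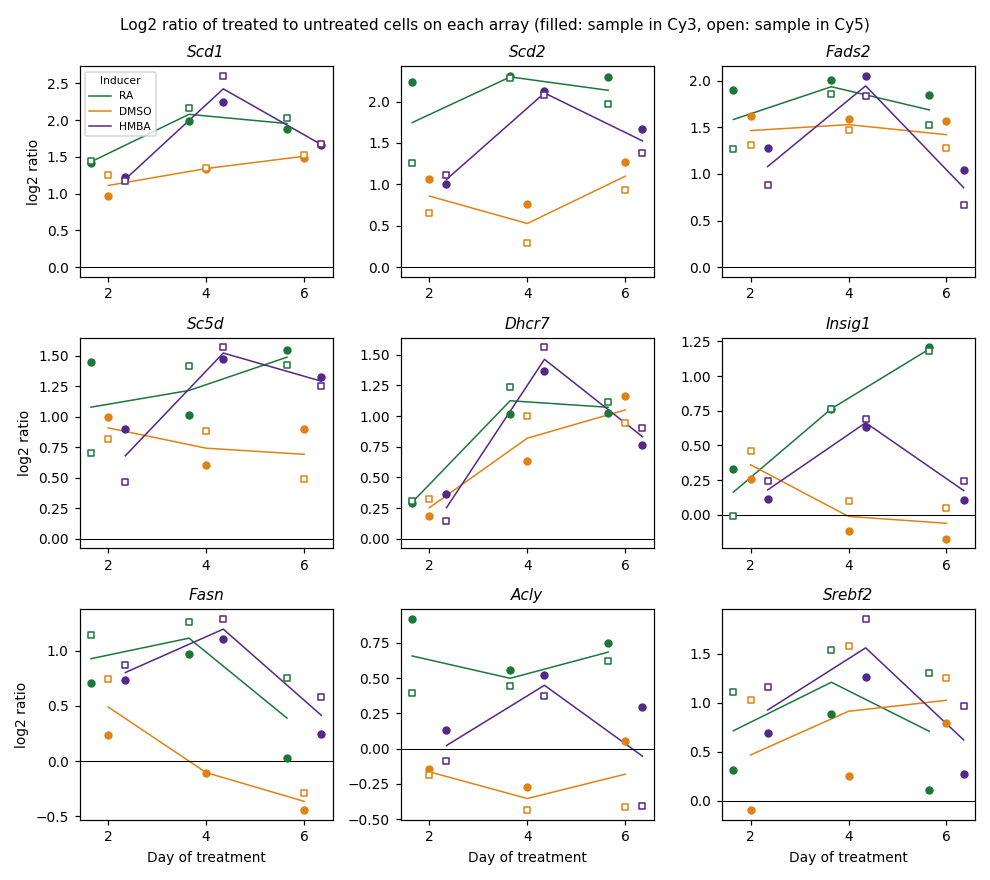
Log2 ratio of treated over untreated cells for 9 genes on each array against the day of treatment, with the sample in Cy3 (filled circles) or Cy5 (open squares) and lines through the mean of the arrays of a day; points of RA and HMBA are shifted sideways, and each vertical axis has its own range. Insig1 climbs to 1.21 and 1.18 on day 6 of RA, the HMBA lines of Scd1, Fads2 and Dhcr7 peak on day 4, and open squares lie above filled circles for Srebf2 on every day.

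Other genes of the same metabolism were taken from lists by function. Their counts stand against 20.6% of all genes that rose and 19.5% that fell after Pou5f1 RNAi, 12.1% and 8.77% after Nanog RNAi, and 17.0%, 10.7% and 15.5% that rose with RA, DMSO and HMBA. Of 15 other genes of the SREBP pathway and its precursors, 3 rose and 6 fell after Pou5f1 RNAi and 1 rose and 6 fell after Nanog RNAi, 5, 5 and 7 of 14 rose with RA, DMSO and HMBA, and 1 fell with HMBA. Elovl1, an elongase of very long chains, was at 2.35 ± 0.13 after Pou5f1 RNAi and 0.64 ± 0.12 after Nanog RNAi. Acsl3, which activates fatty acids, was at 1.95 ± 0.11 with RA, 1.32 ± 0.12 with DMSO and 1.92 ± 0.11 with HMBA (limma adjusted p = 2.2e-07, 2.2e-05 and 2.7e-07).

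Of 14 genes of cholesterol uptake, storage and efflux, 7 rose (20.6% of all genes) and 2 fell (19.5%) after Pou5f1 RNAi, and 3 rose (12.1%) and 1 fell (8.77%) after Nanog RNAi. Scarb1, the HDL receptor, rose by 1.51 ± 0.10 and Apoe, an apolipoprotein, fell by 2.00 ± 0.11 after Pou5f1 RNAi, and Abca1, a cholesterol exporter, rose by 0.91 ± 0.08 there and by 0.88 ± 0.08 after Nanog RNAi. With RA, DMSO and HMBA 5, 2 and 4 of 9 rose and 1, 0 and 1 fell. Npc1, which releases cholesterol from lysosomes, rose by 0.81 ± 0.13, 0.77 ± 0.15 and 0.82 ± 0.13. Of the genes of fatty acid oxidation, 6 of 11 rose and 1 fell after Pou5f1 RNAi, 2 rose and 3 fell after Nanog RNAi, 1, 1 and 2 of 10 rose with RA, DMSO and HMBA, and 1 fell with DMSO. Over all genes 17.0%, 10.7% and 15.5% rose with the inducers. Acadvl, a dehydrogenase of mitochondrial oxidation, was at 0.92 ± 0.10 after Pou5f1 RNAi and 0.74 ± 0.10 after Nanog RNAi, and Pparg at 3.12 ± 0.12 after Pou5f1 RNAi.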

How the data were processed

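Values of 14 one-colour and 18 two-colour arrays were analysed as deposited. The RNAi values are log2 levels made by the authors with RMA, per the submitters' processing notes. The differentiation values are log ratios of treated over untreated cells that the authors deposited as one table, with no further steps stated, and were read as log2. RMA evens out the distributions of the arrays, so a shift shared by most genes may not show. The deposited values still differed a little between arrays, with medians of 4.566 to 4.66 and SDs of 2.07 to 2.183. Of 45101 probe sets on the RNAi arrays 64 controls were set aside, and of the rest 34945 were annotated to 1 symbol, 932 to several and 9160 to none. Of 21106 probes on the two-colour arrays, 16345 with 1 symbol, 125 with several and 4636 with none, the test took the 16657 that no group lacked. The array of DMSO day 4 replicate 2 held 11257 values and the others 15679 to 20019, and Mvk, Lss, Tm7sf2, Hsd17b7, Insig2 and Fasn had no value there, so that their DMSO means rest on at most 5 arrays. The number of arrays limits the precision.

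Each platform was fitted once with limma 3.58.1 in R 4.3.3 across all probes (lmFit, eBayes), with 1 term per group and no dye term, and Benjamini-Hochberg adjusted p under 0.05 over all probes tested was a call. The brightest probe set (RNAi) or the most complete probe (differentiation) stood for a gene. Values on each array are given for the 4 largest called falls and rises of each comparison with vector or untreated cells and for Srebf1, Srebf2, Insig1, Insig2 and Scap, and other pathway genes are named from the 3 smallest p of their list. Genes and lists were chosen with earlier results of these data known. Replicate numbers paired the two-colour arrays, where the number is the dye orientation. Deviations correlated above 0.1 in 72 of 72 pairs of arrays of equal number from different groups. Arrays of a dye-swap pair deviate from their mean by equal and opposite amounts. The correlations of a pair of groups therefore repeat each other across replicate numbers, and the 72 are not independent. Alternatives were the replicate block, averaged dye-swap pairs, scaling, probe choice, filters and leaving out each array. The fit was tested on simulated data. Tables and figures were made with Python 3.11.15 and matplotlib 3.10.9.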

Additional observations from a re-analysis of the deposited data

Results flagged for a closer look

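Nanog RNAi replicate 5 lay apart from the other 4 Nanog RNAi arrays in 4 genes. In log2, Mvd was at 7.63 there and at most 7.25 on the others, Dhcr7 at 7.70 against 7.33, Srebf2 at 7.91 against 7.64 and Scap at 8.72 against 8.50. In all, 93 groups of arrays were examined for the 31 genes, and chance alone sets apart a sample in about 1 of 20 groups. That rate takes the groups as independent, whereas all 4 values were high ones on the same array, so it cannot judge them together. Replicate 5 also had the lowest median (4.566) and the highest SD (2.183) of the Nanog RNAi arrays. Whether the array as a whole was shifted was not tested.

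Insig1 changed over time with RA, and whether its course differed between inducers depended on the fit. Its ratio was 1.03 higher in log2 on day 6 than on day 2 with RA, and the difference from the same change with DMSO and with HMBA passed limma's test with dye orientation as a replicate block (adjusted p = 0.0021 and 0.043) and not without it (limma adjusted p = 0.090 and 0.69).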

How the results depend on the processing

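With dye orientation as a replicate block the number of genes called was 19 for DMSO against untreated cells (12 without), 8 for RA against HMBA and 8 for DMSO against HMBA (0 each without), 5, 4 and 4 for day 6 against day 2 of RA, DMSO and HMBA (1, 0 and 0), 1 for each difference of that change between RA and DMSO or HMBA (0 each), and 11 for HMBA day 4 (0). With dye-swap pairs averaged, RA against DMSO had 2 (5 otherwise), and the comparisons of days could not be fitted. DMSO against HMBA had 1 with arrays scaled to one spread and 1 with the mean of all probes, RA day 6 against day 2 had 0 with scaled arrays, and HMBA day 4 had 1 with the mean of all probes and 1 with only probes present on all arrays. With the mean of all probe sets, Sc5d in Pou5f1 RNAi against vector was -0.021 and Lss in Pou5f1 against Nanog RNAi was 0.13, each of opposite sign to the value given above. Leaving out 1 array gave 20 to 24 genes for Pou5f1 RNAi, 17 to 19 for Nanog RNAi, 17 to 21 between them, 13 to 19 for RA, 8 to 13 for DMSO, 16 to 19 for HMBA, 3 to 6 for RA against DMSO, 0 to 2 for RA against HMBA and for DMSO against HMBA, 0 to 1 for RA day 6 against day 2, and 0 to 1 for HMBA day 4 (1 without either RA array of day 2). Replicate numbers of the RNAi arrays were not taken to pair them, since 5 of 13 pairs correlated above 0.1, with r from -0.25 to 0.44. Replicate 5 had the lowest median and the highest SD among the vector arrays and also among the Nanog RNAi arrays. Whether arrays of equal number share a batch was not tested. The replicate block on the RNAi arrays gave 25, 20 and 21 genes for Pou5f1 RNAi, Nanog RNAi and the direct comparison. No share of all genes is given for that block or for leaving out 1 array, so these counts have no background beside them. Of the called values of single genes, 2 changed sign in any alternative. The labels do not state whether dye-swapped arrays share an extract.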
